A study of Mus musculus with 12 samples.

Results

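The genes described here sense oxygen in the cell or answer to it. They were chosen by symbol as *Hif1a*, *Epas1* and *Arnt* (subunits of the hypoxia-inducible factors, HIFs), *Egln1*, *Egln2*, *Egln3* and *Hif1an* (oxygen-dependent hydroxylases), *Vhl* (a ubiquitin ligase subunit), and the HIF targets *Vegfa* and *Tfrc*. These are 10 of the 10030 genes named in 6 lists of N6-methyladenosine (m6A) peaks on mRNAs, and each of the 10 had a peak in at least 1 list. The cells were of the mouse line C17.2, immortalised neural stem cells (NSCs) grown with serum, so a single line stood for NSCs. The H/R group (hypoxia/reoxygenation) was kept for 12 h in a chamber with 5% oxygen, followed by 48 h of reoxygenation under standard conditions. The control group was kept in culture without hypoxia. No group carried a genetic change or any other agent according to the labels, which gave 3 immunoprecipitates and 3 inputs per group. Each list came from 1 immunoprecipitate set against an input, and the lists of a group carry the letters A, B and C. Where 3 values of a group are given, they are those of its libraries A, B and C. Nothing in the labels said that the 3 libraries of a group came from separate cultures, so the p-values below measure no more than the spread of these samples, which can be technical.

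In mammalian cells the α subunits encoded by *Hif1a* and *Epas1* are made continuously, and in oxygen the prolyl hydroxylases encoded by *Egln1*, *Egln2* and *Egln3* mark them for capture by the VHL protein and destruction. The asparaginyl hydroxylase encoded by *Hif1an* blocks their contact with coactivators. When oxygen is low the α subunits pair with the ARNT protein and switch on genes for glycolysis, blood vessel growth and iron uptake. Neural stem cells reside in tissue of low oxygen and use this pathway in their maintenance. m6A is a methyl mark that a methyltransferase complex places on adenosines of mRNA, and an immunoprecipitation with an antibody against it enriches the RNA fragments that carry it. A peak is a stretch where the immunoprecipitate exceeded the input, and its fold enrichment is the ratio of the immunoprecipitate to the local background.

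The mRNA lists held 18706, 13954 and 22038 peaks in H/R, against 12180, 8932 and 7863 in control, so every list of the H/R group was the longer one. Median fold enrichment ran the other way, with 9.34, 15.5 and 10.1 in H/R and 21.8, 33.9 and 28.0 in control. The numbers of reads behind the lists were not used, and more RNA of a gene, more methylation of it and deeper sequencing cannot be told apart from the presence of a peak. Of the stem cell markers *Nes*, *Sox2* and *Notch1* had peaks in all 6 lists. *Hes1* had 2, 1 and 2 peaks in H/R and *Msi1* 1, 0 and 1, with none in control for either, and the other 6 of the 11 markers searched had no peak in any list. Of 25 markers of neurons, glia and endothelium, 4 had one, namely *Map2*, *Gfap*, *P2ry12* and *Tek*, and none of these in all 6 lists. A gene without a peak may still be expressed.

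Peaks were called on part of the pathway in both groups. *Hif1a*, *Arnt*, *Egln1*, *Egln2* and *Vegfa* were called in all 6 lists, as were 3966 of the 10030 genes. *Hif1an* and *Tfrc* were called in every H/R list and in no control list, *Egln3* in every H/R list and in control A, and *Epas1* and *Vhl* in H/R C alone, the longest list. The H/R lists thus named 8, 8 and 10 of the 10 genes and the control lists 6, 5 and 5. Of all 10030 genes the H/R lists named 8114, 6639 and 8936, and the control lists 6470, 5208 and 4707, so the lists as a whole differed in the same direction. The 10 genes held 19, 14 and 19 peaks in H/R, against 12, 8 and 10 in control, or 82 peaks in all. Per 10000 peaks of the list they held 10.2, 10.0 and 8.62 peaks in H/R and 9.85, 8.96 and 12.7 in control, and on that scale the groups overlapped.

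**Figure D1:**
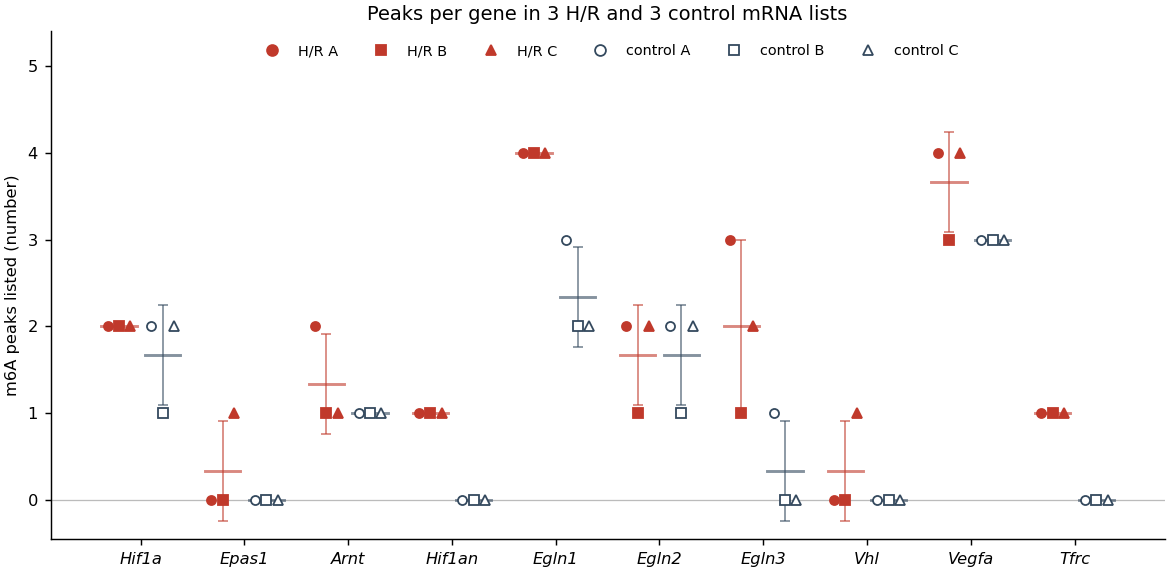
Number of m6A peaks listed for each gene (vertical axis) in H/R libraries (filled symbols, left of each pair) and control libraries (open symbols), with the mean and SD of 3 libraries as bars. *Egln1* has 4 peaks in every H/R library and 2 or 3 in the control libraries, and *Hif1an* and *Tfrc* have 1 peak in each H/R library and 0 in each control library.

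Against the whole of the lists the presence calls were as follows. The genes called in every H/R list and no control list were 2 of 10 here, *Hif1an* and *Tfrc*, and 497 of 10030 among all genes (4.96%). None of the 10 was called in every control list and no H/R list, as 7 genes were over the whole lists (0.0698%). More peaks in every H/R list than in any control list were found for 3 of 10, *Egln1*, *Hif1an* and *Tfrc*, beside 14.8% of all genes, and fewer for 0 of 10, beside 0.12% of all. With the bases under peaks counted in place of peaks, 4 of 10 had more in every H/R list, with *Egln3* as the addition, beside 16.3% of all genes, and 0 of 10 had fewer, beside 1.09%. No gene of the 10030 could pass a threshold of 0.05, because the two-sided exact permutation test of 3 against 3 libraries gives p = 0.1 at the smallest.

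The same counts were taken with lists of equal length. When each list was held to its 7863 peaks of highest p score, none of the 10 genes was called in every H/R list and no control list, beside 1.13% of the 6444 genes that were left, and none had more peaks in every H/R list than in any control list, beside 2.51%. *Egln3* and *Vhl* were then listed in H/R C and in no other list. *Epas1*, *Hif1an* and *Tfrc* then had no peak in any list, and *Egln1* had 2 peaks in each of the 6. *Arnt*, called in all 6 full lists, was then listed in control B and C and in no H/R list. The part of list length in the calls of the full lists was not tested.

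The 82 peaks merged into 21 regions, joined where peaks of a gene overlapped by at least 1 base. Of these, 8 regions were present in all 6 lists, beside 5931 of all 27132 regions. A further 9 were in no control list and 0 in no H/R list. The shares of all regions in these last 2 classes were not counted, and the H/R lists were the longer ones. Regions called in every H/R list and no control list were 3 of 21, *Egln1* exon 3, *Hif1an* exon 2 and *Tfrc* exon 1, beside 6.21% of all 27132 regions, and none of the 21 was called in every control list and no H/R list, beside 0.059% of all. Peaks took the shape of exons: 65 of the 82 had both edges on exon edges of the annotation (79.3%, against 69.0% of all mRNA peaks) and 81 had at least 1 edge there. The length of a peak is therefore mostly the length of its exon.

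*Hif1a*, which encodes HIF-1α, carried peaks at its start and within its coding sequence. Exon 1 (chr12:73907867-73908324, mm10, plus strand), made of 423 bases of 5′ untranslated region and the first 35 coding bases, had a peak in 5 of 6 lists. Its fold enrichment was 7.04, 8.18 and 12.1 in H/R, against 10.2 and 13.5 in control A and C, with no peak in control B. Each peak also has a p score, its -log10 p multiplied by 10, of which 50 is the lowest listed. On this scale the exon 1 peak reached 243, 139 and 467 in H/R, against 58.4 and 50.4 in control A and C. The 2 control peaks thus lay close to the lower limit of the lists, and the H/R peaks were all above them.

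Exon 12 of *Hif1a* (chr12:73941961-73942385, plus strand), 425 bases and all coding, was filled from edge to edge by a peak in each of the 6 lists. The fold was 12.8, 25.5 and 16.5 in H/R, against 28.7, 35.2 and 25.6 in control. Every H/R value lay below every control value, by a narrow margin between H/R B and control C (mean 18.2 ± 6.51 in H/R and 29.8 ± 4.93 in control, SD, n = 3 each, exact permutation p = 0.1, adjusted p = 0.184 over 5931 regions). The m6A consensus DRACH (D for any base but C, R for A or G, H for any base but G) was searched on the transcript strand of RefSeq sequence of GRCm38.p6, the assembly of mm10. Exon 12 held 10 matches, and a median of 8 was found in the 1147 regions within 10% of its length. The match nearest its middle is shown with 10 bases on either side of it (chr12:73942159-73942183), with the match in capitals here and in the sequences below.
Hif1a exon 12 centre: gatgaatcaaAAACAgagacgaagg

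*Epas1*, which encodes the second α subunit, HIF-2α, had a single peak over the 6 lists. It covered 436 bases of the 3′ untranslated region in exon 16 (chr17:86831404-86831839, plus strand), with a fold of 9.03 and a p score of 106 in H/R C. Only 1 DRACH match lay in it, where the 1140 regions of like length had a median of 8. The pattern of presence in H/R C alone was shared by 1269 genes, *Vhl* among them.

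*Arnt*, the constitutive partner of the α subunits, had its peak in exon 1 (chr3:95434388-95434561, plus strand), 174 bases of which 149 are 5′ untranslated and 25 coding. The fold was 7.20, 15.8 and 11.3 in H/R, against 12.4, 45.4 and 40.4 in control. Control A lay among the H/R values, so the groups overlapped (exact permutation p = 0.2, adjusted p = 0.276). The p scores had the opposite order, with 259, 132 and 240 in H/R, all above the 70.6, 126 and 87.3 of control (exact permutation p = 0.1, adjusted p = 0.188). A second peak, of 237 bases and a fold of 6.14, was listed in H/R A on the last exon of a short *Arnt* transcript (chr3:95460377-95460613). The exon 1 region held 1 DRACH match, close to its 3′ end, and it is shown up to the end of the exon (chr3:95434544-95434561).
Arnt exon 1 centre: cgactacagcTAACCcag

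The 3 prolyl hydroxylase genes have a similar exon structure and differed in where their peaks lay. *Egln1*, whose product PHD2 is the main oxygen sensor of most cells, had peaks on its first exons. *Egln2* (PHD1) had them on its large coding exon and its last exon, and *Egln3* (PHD3), itself a HIF target, on its last exons.

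**Figure D2:**
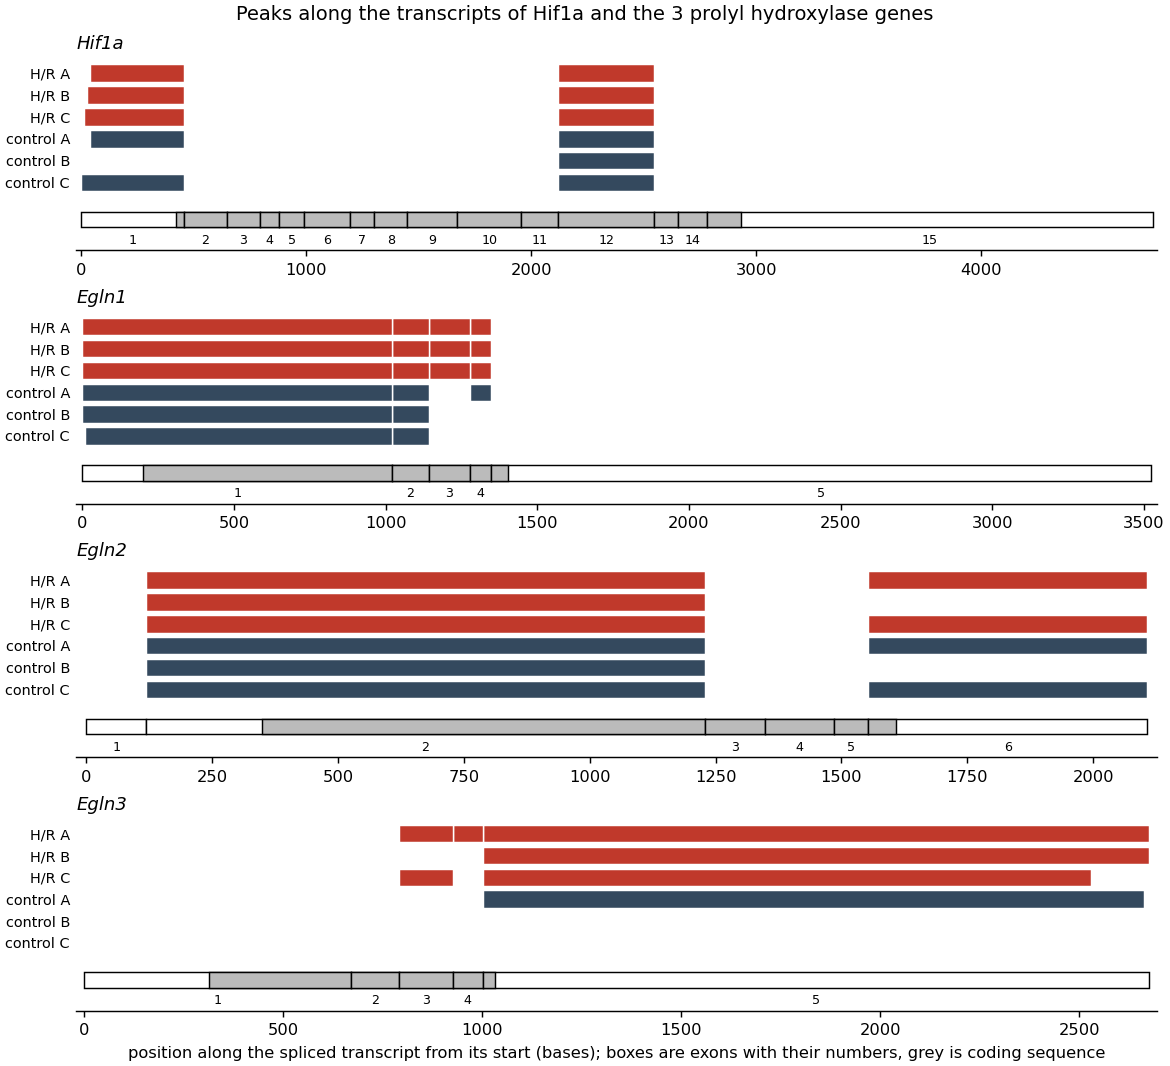
Peaks of each library (rows, H/R in red above control in blue) along the spliced transcripts of *Hif1a*, *Egln1*, *Egln2* and *Egln3*, with position in bases from the transcript start on the horizontal axis and numbered exons below, coding sequence in grey. In *Egln1*, exon 3 is covered in the 3 H/R libraries alone and exon 4 in these and control A.

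*Egln1* held 4 peaks in each H/R list, against 3, 2 and 2 in control, an excess of 1.67 peaks per library (exact permutation p = 0.1, adjusted p = 0.669 over 10030 genes). The groups did not overlap, and the 4 peaks of the H/R lists filled exons 1 to 4 without a gap, 1347 bases in every H/R list against 1210, 1142 and 1132 in control. Exon 1 (chr8:124948233-124949254, minus strand, 200 bases of 5′ untranslated region and 822 coding) and exon 2 (chr8:124915661-124915780, coding) were called in all 6 lists. Exon 5, which holds the stop codon and most of the transcript, 2177 bases, had no peak in any list.

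Among the 10 genes' 8 regions present in all 6 lists, exons 1 and 2 of *Egln1* had the highest mean folds in both groups. In control C, however, exon 2 lay below exons 1 and 7 of *Vegfa*. In exon 2 the fold was 57.0, 77.6 and 83.4 in H/R, against 96.1, 103 and 53.4 in control. In exon 1 it was 56.1, 60.2 and 69.8 in H/R, against 87.0, 88.6 and 64.0 in control. Control C was below every H/R value in exon 2 and below H/R C in exon 1, so the groups overlapped (exact permutation p = 0.6 for exon 2 and p = 0.2 for exon 1, adjusted p = 0.645 and 0.276). The p score stood at 3100, a value at which many peaks of the lists ended up, for both exons in each H/R list, against 2867, 1656 and 971 in control for exon 1 and 3100, 1874 and 1007 in control for exon 2. On this scale the groups overlapped in exon 2, at the value of control A (exact permutation p = 0.4, adjusted p = 0.483), and did not in exon 1 (exact permutation p = 0.1, adjusted p = 0.188).

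Exons 3 and 4 of *Egln1* were of another order of enrichment. Exon 3 (137 coding bases) had a fold of 5.90, 5.28 and 4.99 in H/R, with p scores of 121, 65.8 and 239, and no peak in any control list. Exon 4 (chr8:124911741-124911808, 68 coding bases) had a fold of 7.36, 9.51 and 7.11 in H/R, against 15.0 in control A. These are the peaks that made up the difference in number between the groups, and each had a fold below the median of its own list. With peaks of a fold of at least 10 alone, the excess of 1.67 peaks turned to -0.33.

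The whole coding exons 2 and 4 of *Egln1* are shown, since exon 2 was called in every library and exon 4 in the H/R libraries and 1 control library. They held 4 and 2 DRACH matches, or 33.3 and 29.4 per 1000 bases, where all 26059 regions whose strand was known from the reference had 20.2 per 1000 bases. The density of matches was thus similar in exon 2, of high enrichment, and exon 4, of low enrichment. It was not similar over all 4 exons with a peak. Exon 1, also of high enrichment, had 10.8 matches per 1000 bases, and exon 3, also of low enrichment, had 36.5. For exon 1 the match nearest the middle is given (chr8:124948756-124948780).
Egln1 exon 2: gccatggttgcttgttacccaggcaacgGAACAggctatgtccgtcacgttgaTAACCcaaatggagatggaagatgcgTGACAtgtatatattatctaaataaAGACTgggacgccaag
Egln1 exon 4: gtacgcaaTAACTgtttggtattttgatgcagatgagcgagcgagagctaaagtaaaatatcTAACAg
Egln1 exon 1 centre: cccggcgcggGGACAgcgcggcggc

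*Egln2* had the same number of peaks in both groups, 2, 1 and 2 in H/R and 2, 1 and 2 in control. Exon 2 (chr7:27164620-27165728, minus strand, 230 bases of 5′ untranslated region and 879 coding) was filled in all 6 lists. Its fold was 15.0, 14.1 and 13.6 in H/R, against 13.9, 28.4 and 22.0 in control. Control A lay within the narrow H/R range, and the groups overlapped (exact permutation p = 0.3, adjusted p = 0.365). Its p scores, by contrast, were 2101, 560 and 1289 in H/R, all above the 104, 296 and 149 of control (exact permutation p = 0.1, adjusted p = 0.188). The last exon (chr7:27158658-27159211, 498 of its 554 bases in the 3′ untranslated region) had a fold of 7.96 and 10.5 in H/R A and C, against 18.7 and 25.5 in control A and C, with no peak in either library B.
Egln2 exon 2 centre: ccaggcaagaGAACCaggaggccaa

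The window of *Egln2* above lies at chr7:27165065-27165089. In the highest fold per list, which came from exon 6 in control A and C and from exon 2 elsewhere, *Egln2* had 15.0, 14.1 and 13.6 in H/R, all below the 18.7, 28.4 and 25.5 of control. The exon 6 peaks of control A and C had p scores of 82.2 and 63.5, near the lowest listed value of 50. With peaks of a p score of at least 100 alone, the difference in highest fold was -7.17 and the groups overlapped (exact permutation p = 0.3, adjusted p = 0.366).

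*Egln3* had 3, 1 and 2 peaks in H/R, against 1, 0 and 0 in control (exact permutation p = 0.2, adjusted p = 0.898). H/R B and control A had the same number, so the peak counts overlapped. The bases under them did not, with 1886, 1675 and 1665 in H/R, against 1662, 0 and 0 in control, although control A was within 3 bases of H/R C. The last exon, exon 5 (chr12:54178981-54180655, minus strand, 1643 of its 1675 bases in the 3′ untranslated region), had a fold of 5.52, 8.57 and 11.8 in H/R, against 14.4 in control A. Exon 3 (chr12:54183880-54184016) was listed with a fold of 8.02 and 8.31 in H/R A and C, and exon 4 (chr12:54181631-54181704) with 4.12 in H/R A. Without control A, *Egln3* would also be called in every H/R list and no control list.

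Exon 3 of *Egln1* and exon 3 of *Egln3* are both 137 bases long, and so is exon 4 of *Egln2*. Neither of the first pair had a peak in any control list, and the exon of *Egln2* had no peak in any list. Aligned base by base, the *Egln2* and *Egln3* exons were identical at 94 positions (68.6%). Both had 3 DRACH matches, so matches were present in the exon without a peak too. The *Egln2* exon lies at chr7:27159787-27159923.
Egln2 exon 4: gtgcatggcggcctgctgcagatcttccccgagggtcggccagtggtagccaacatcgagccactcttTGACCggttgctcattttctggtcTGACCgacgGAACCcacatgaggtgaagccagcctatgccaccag
Egln3 exon 3: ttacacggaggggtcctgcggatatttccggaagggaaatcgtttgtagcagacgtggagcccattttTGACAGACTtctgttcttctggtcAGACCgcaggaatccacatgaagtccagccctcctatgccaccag

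*Hif1an*, which encodes the asparaginyl hydroxylase FIH, had 1 peak in each H/R list and none in control. It began at the first base of exon 2 (chr19:44563290-44563830 over the 3 lists, plus strand) and was 437, 439 and 541 bases long in H/R. Its fold was 3.92, 6.89 and 12.0 in H/R, the 3.8th, 3.8th and 60.3rd percentile of the folds in those lists, so that in H/R A and B it was among the weakest peaks listed. The RefSeq exon 2 is 251 bases, all coding, and 290 bases of the region lay past its end, in the following intron. An annotated noncoding *Hif1an* transcript has an exon of 663 bases that holds the whole region. The transcript that the lists name is not among the models used here.

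The exon 2 bases of *Hif1an* (chr19:44563290-44563540) are shown because the region was called in every H/R list and no control list. They held 5 DRACH matches, and the whole region held 10, beside a median of 11 in the 1046 regions of like length.
Hif1an exon 2: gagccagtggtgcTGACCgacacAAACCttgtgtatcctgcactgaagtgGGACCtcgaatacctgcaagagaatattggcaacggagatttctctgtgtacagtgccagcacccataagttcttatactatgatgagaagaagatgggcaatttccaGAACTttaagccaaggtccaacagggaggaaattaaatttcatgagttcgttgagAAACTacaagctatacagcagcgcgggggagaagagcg

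*Vhl*, whose product captures hydroxylated α subunits for the ubiquitin ligase, had a single peak, in H/R C. It covered 881 bases of exon 3 (chr6:113629385-113630265, plus strand), of which 185 are coding and 696 lie in the 3′ untranslated region. Its fold was 6.97, the 25.2nd percentile of that list, and its p score 727, above the median p score of 299 in H/R C. With each list held to 7863 peaks this peak was still listed.

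*Vegfa*, the growth factor that draws new vessels to tissue short of oxygen, was the most widely covered of the 10 genes, with 3743, 3694 and 3707 bases under peaks in H/R and 3694 in each of control. Its 4, 3 and 4 peaks in H/R, against 3 in each control list, differed by the small exon 2 alone (chr17:46028351-46028399, minus strand, 49 bases), listed with a fold of 4.80 and 6.56 in H/R A and C. The other peaks lay on the same exons in all 6 lists and filled them, except that the peak on exon 7 was 1851 bases long in H/R C. They were exon 1 (chr17:46031291-46032377), the last exon, exon 7 (chr17:46016993-46018879, 1865 of its 1887 bases in the 3′ untranslated region), and the first exon of a shorter transcript that starts inside the gene (chr17:46024444-46025163, 562 bases of 5′ untranslated region and 158 coding), called the inner exon 1 here.

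Exon 1 of *Vegfa* had a fold of 30.4, 41.9 and 35.9 in H/R, against 61.3, 72.2 and 63.8 in control. Exon 7 had 31.7, 44.2 and 43.1 in H/R, against 58.3, 81.8 and 56.3 in control. In both exons every H/R value was below every control value (exact permutation p = 0.1, adjusted p = 0.184 for each), with H/R over control ratios of the means of 0.548 and 0.606. The inner exon 1 had 10.2, 19.1 and 18.6 in H/R, against 18.5, 29.3 and 23.3 in control, and there the groups overlapped (exact permutation p = 0.3, adjusted p = 0.365). Both exon 1 and exon 7 had a p score of 3100 in all 6 lists.

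For *Vegfa* the windows around the central matches are shown to place the peaks that all libraries shared (exon 1, chr17:46031859-46031883, inner exon 1, chr17:46024764-46024788, and exon 7, chr17:46017963-46017987). The window of exon 1 holds 3 overlapping matches in a repeat. These regions held 23, 9 and 38 matches, beside medians of 22, 14 and 38 in regions of like length.
Vegfa exon 1 centre: acAGACAGACAGACAccgcccccag
Vegfa inner exon 1 centre: taagaatccaGGACCtgaattccca
Vegfa exon 7 centre: cggcaagagaAGACAcggtggtgga

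*Tfrc*, the transferrin receptor that brings iron into the cell, had 1 peak in each H/R list and none in control. The peak lay on the 3′ end of exon 1, all of it in the 5′ untranslated region (chr16:32608915-32609036 over the 3 lists, plus strand), and was 115, 122 and 84 bases long in H/R. Its fold was 11.4, 21.1 and 11.1, with p scores of 342, 177 and 375. The folds stood at the 61.4th, 69.0th and 55.7th percentile of their lists, well above those of *Hif1an* in H/R A and B. Among peaks with a fold of at least 10, *Tfrc* was the single gene of the 10 still called in every H/R list and no control list, beside 1.58% of the 8015 genes left, and *Hif1an* kept its peak in H/R C. The region held a single DRACH match, of the form GGACT (chr16:32609006-32609030), and 12.5% of the 2191 regions of like length held GGACT.
Tfrc exon 1 centre: gctgcattgcGGACTgtagaggcgc

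**Figure D3:**
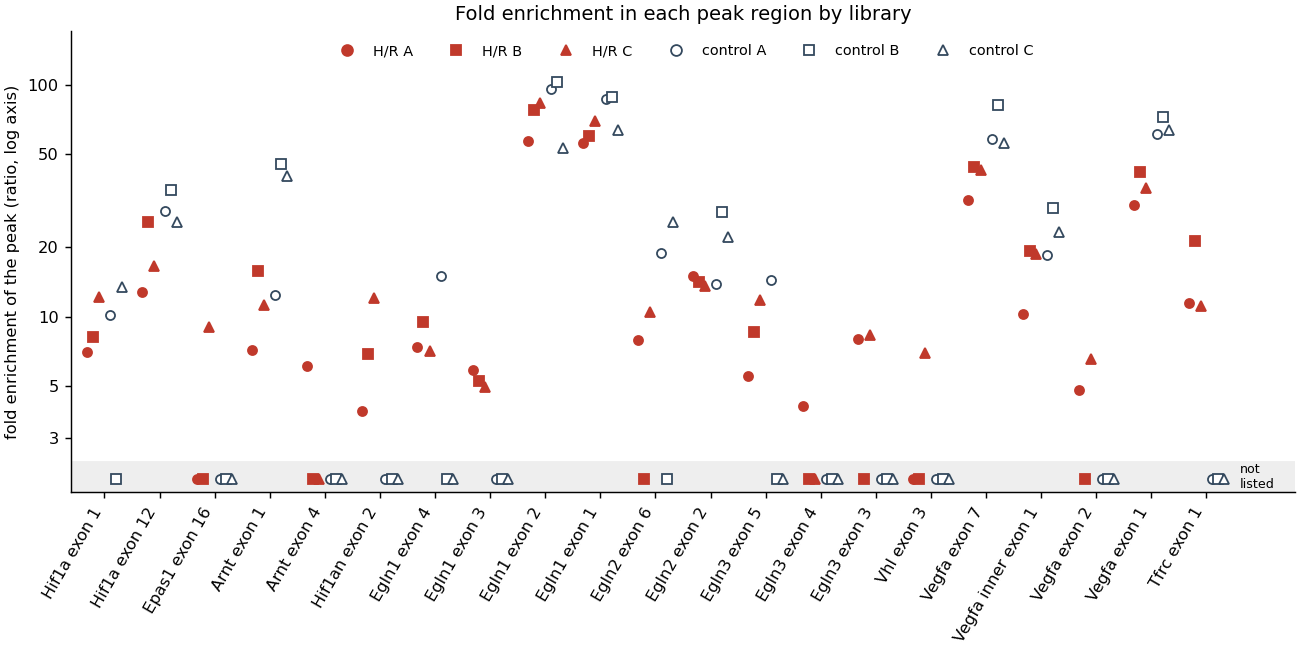
Fold enrichment (log axis) in each of the 21 regions, with H/R libraries as filled symbols to the left of control libraries as open symbols, and libraries without a peak in the grey band at the foot. The 9 regions with no peak in any control library have folds between 3.92 and 21.1. *Egln1* exons 1 and 2 have the highest means of the 8 regions shown that are present in all 6 lists.

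Fold enrichment and its rank within the list gave opposite orders of the groups. In all 8 regions present in every list the mean fold was lower in H/R, as it was in 96.6% of the 5931 such regions, where the median ratio of H/R to control was 0.583. Every H/R value was below every control value in 3 of these 8 regions (*Hif1a* exon 12, *Vegfa* exon 1 and *Vegfa* exon 7), beside 54.2% of the 5931. By gene, taking the highest fold per list, the groups did not overlap in this direction for 3 of the 5 genes called everywhere, *Hif1a*, *Egln2* and *Vegfa*, beside 53.6% of 3966 genes (exact permutation p = 0.1, adjusted p = 0.186 for each). For *Egln2* the groups did overlap with peaks of a p score of at least 100 alone, as given above.

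When each fold was replaced by its percentile in its own list, 7 of the 8 regions had a higher mean in H/R and 1 a lower one, beside a lower mean in 11.1% of the 5931 regions. *Egln2* exon 2 stood at 74.5, 43.6 and 66.8% in H/R, against 18.2, 35.7 and 30.7% in control, and the inner exon 1 of *Vegfa* at 55.3, 63.5 and 80.4% in H/R, against 38.1, 38.3 and 35.3% in control. *Hif1a* exon 12 stood at 67.0, 77.8 and 75.7% in H/R, against 66.8, 53.1 and 42.9% in control. The means differed less in *Egln1* exons 1 and 2, by 5.14 and 6.31 percentage points, and in *Vegfa* exons 1 and 7, by 3.48 and 4.69. In none of the 8 regions was the percentile lower in every H/R list than in any control list, beside 0.759% of all such regions. The opposite case, a higher percentile in every H/R list, was not counted over all regions. *Arnt* exon 1 was the exception in the means, with 47.0 ± 12.4% in H/R and 51.9 ± 34.6% in control (SD, n = 3 each). The p score was higher in every H/R list than in any control list in 3 of the 8, *Arnt* exon 1, *Egln1* exon 1 and *Egln2* exon 2, beside 53.1% of all such regions. The direction of these differences thus depended on the scale. A percentile also depends on how many weak peaks its list holds, and the H/R lists were the longer ones. The part of list length in the percentiles was not tested.

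**Figure D4:**
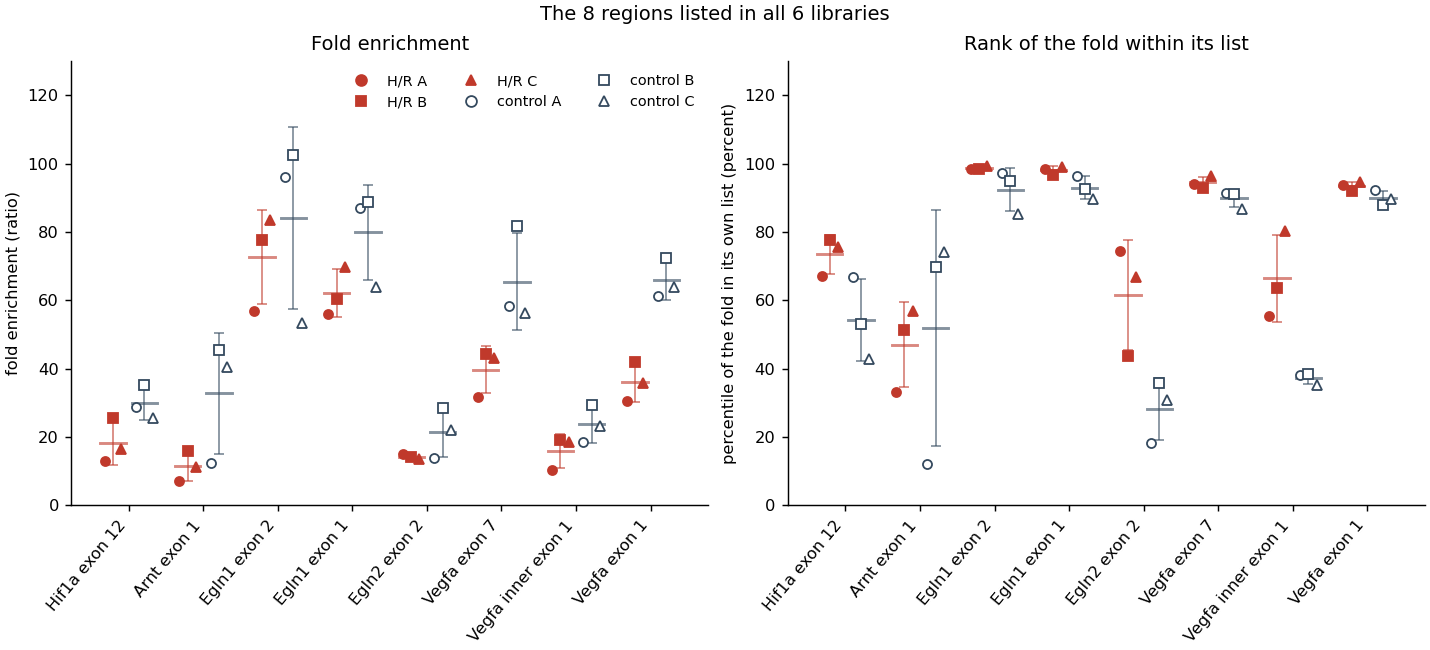
The 8 regions present in all 6 lists, with fold enrichment on the left (ratio) and the percentile of the fold within its own list on the right (percent), H/R libraries as filled symbols left of control libraries as open symbols, and bars for the mean and SD of 3 libraries. Mean fold is lower in H/R in all 8 regions, and mean percentile is higher in H/R in 7 of them.

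Over the 21 regions, 20 held at least 1 DRACH match and 10 held GGACT, beside 94.0% and 35.6% of all 26059 regions. GGACT stood at 1.18 per 1000 bases in the 21 regions, against 1.16 over all regions. The exception without DRACH was the 49 bases of *Vegfa* exon 2, and 71.4% of the 294 regions of like length held a match. In all the 21 regions had 17.4 matches per 1000 bases, against 20.2 over all regions. *Epas1* exon 16 (2.29) and *Arnt* exon 1 (5.75) were the sparsest of those with a match.

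Other genes of the pathway were taken from lists of HIF regulators and partners, glucose metabolism, other HIF targets, angiogenic ligands and receptors, and iron handling, 102 genes in all, of which 66 had a peak. None of the 66 was called in every H/R list and no control list, beside the 4.96% of all genes, and none in every control list and no H/R list. More peaks in every H/R list than in any control list were counted for 9 of them (13.6%, against the 14.8% of all genes given above), fewer for 0, and the median difference was 0.67 peaks per library in the 66 as in all genes, and 0.5 in the 10 members of the pathway described here. None of them could pass a threshold of 0.05, as given above (exact permutation p = 0.1, the smallest possible, adjusted p = 0.669 for each of the 9).

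Of the HIF regulators and partners 4 of 12 were among the 9. The coactivators *Ep300*, with 9, 8 and 9 peaks in H/R against 7, 6 and 6 in control, and *Crebbp*, with 8, 9 and 9 against 7, 6 and 7, are the proteins whose contact FIH blocks. *Siah2*, a ubiquitin ligase that acts on prolyl hydroxylases, had 2, 2 and 2 peaks in H/R against 1, 1 and 0 in control, and *Os9*, which binds HIF-1α and prolyl hydroxylases, had 3, 3 and 3 against 2, 1 and 1. In glucose metabolism 2 of 14 were, the hexokinases *Hk1* (4, 2 and 4 peaks in H/R against 1, 1 and 1 in control) and *Hk2* (4, 3 and 5 against 2, 2 and 1).

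Among the other HIF targets 3 of 20 were, the nuclear receptor *Rora* with 7, 4 and 6 peaks in H/R against 3, 2 and 2 in control, the MYC antagonist *Mxi1* with 4, 4 and 5 against 3, 2 and 3, and *Lox*, which crosslinks collagen, with 2, 2 and 2 against 1, 1 and 1. None of the 13 angiogenic genes or the 7 iron genes with a peak was among them. The single peak of *Tfrc* thus stood beside iron genes whose peak counts overlapped between the groups, a difference that was not tested.

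The peaks of the 10 genes were listed with high false discovery rates. The lowest rate among the 82 was 25.0%, in H/R A, and none was at 5% or less. Over all lists 6 H/R peaks and 9 control peaks had a rate of 5% or less.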

How the data were processed

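The series holds 12 samples, 3 immunoprecipitates and 3 inputs of H/R cells and 3 of each of control cells, and 18 deposited peak lists, 1 for mRNAs, lncRNAs and circRNAs of each of 6 libraries, of which the 6 mRNA lists were used for the results. The submitters' processing notes name cutadapt (version 1.9.3), HISAT2 (version 2.0.4) and mm10 for trimming, alignment and genome. Peak calling was done by the authors with MACS, and each library has its own lists. With a program of their own the authors then screened for peaks that lay on mRNA exons. The version of MACS is not given in the sources used here. For each peak the files hold, as deposited, a p score (MACS p as -log10, times 10), a fold enrichment (a ratio over local background) and a false discovery rate (percent), all as the caller gave them. Depth and background affect how many peaks a caller finds in the same RNA. Reads per library were not used, so the depth is unknown here and no interval that needs it is given.

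A gene was called where its symbol stood in a list, and a gene absent from a list has 0 peaks there. Regions are mRNA peaks of a gene that overlap by at least 1 base. Peaks and bases under peaks per gene were computed for all 10030 genes, and highest fold per gene for the 3966 called in all 6 lists. Fold, its percentile in the list and p score were computed for the 5931 regions present in all 6 lists. The difference in group means was tested by exact permutation (two-sided). Benjamini-Hochberg adjustment was made over all genes or regions tested, at a threshold of 0.05. The smallest p of 3 against 3 libraries is 0.1. The labels' replicate numbers could not be matched to the library letters. The scripts were tested on simulated data. Exons came from RefSeq (GRCm38.p6) and GENCODE vM21, both in mm10 coordinates, and sequences from RefSeq. A region was compared with those within 10% of its length. 1 marker gene and the sequence of 1 exon are not reported here. The lists give no strand, so strands are those of the annotation.

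The 10 genes, the pathway lists and the markers were chosen with earlier results of these data known, and the text names all 10 genes and, of the other pathway genes, those whose peak counts did not overlap between the groups. Older and newer symbols of 5 pathway genes were both searched. Alternatives were a p score of at least 100, a fold of at least 10, lists of equal length, peaks less than 100 bases apart joined, naming by exon overlap, an overlap of 50% of the shorter peak, the percentile scale and each library left out in turn. Analyses used Python 3.11.15, pandas 2.3.3, numpy 2.4.6 and pysam 0.24.0.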

Additional observations from a re-analysis of the deposited data

Results flagged for a closer look

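A single signal of the 10 genes stood outside the mRNA lists. *Egln2* was named in the lncRNA list of H/R C, on an exon sense-overlapping transcript, with a peak of 150 bases (chr7:27166133-27166282, mm10) at a fold enrichment of 6.81 and a p score of 66.4. The peak lies between exons 1 and 2 of the coding transcript. It was absent from H/R A and B and from the 3 control lncRNA lists, and none of the 10 genes was named in a circRNA list. With 1 library the difference between the groups was not tested.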

How the results depend on the processing

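No paired analysis was possible because the lists carry letters that cannot be matched to the labels' replicate numbers. No gene or region passed the adjusted threshold under any alternative, since 3 against 3 libraries cannot go below p = 0.1 by the exact permutation test. Called in H/R alone means here in every H/R list and no control list. The 2 genes called in H/R alone, the 3 genes with more peaks in every H/R list, the 3 regions called in H/R alone, the mean excess of 3.33 of the 10 genes called per H/R list and the mean excess of 7.33 of their peaks became 1, 1, 1, 1.0 and 0.0 with a fold of at least 10, and 0, 0, 0, 0.33 and -0.33 with lists of equal length. Among all genes left, the shares called in H/R alone and with more peaks were 1.58% and 3.39% of 8015 with a fold of at least 10. They were 1.13% and 2.51% of 6444 with lists of equal length. The shares of all regions were not counted under these settings. With a fold of at least 10 the difference (H/R minus control) in peaks was -0.33 for *Hif1a*, *Arnt*, *Egln1* and *Egln2*, and that in bases -143 for *Hif1a*, -63.3 for *Arnt*, -19.3 for *Egln1*, -185 for *Egln2*, -44.7 for *Egln3* and -12.0 for *Vegfa*. With lists of equal length it was -0.33 peaks for *Hif1a* and -0.67 for *Arnt*, and -153, -116 and -12.0 bases for *Hif1a*, *Arnt* and *Vegfa*. A fold of at least 10 lies below the median of every control list and above that of H/R A, so it does not treat the groups evenly. On the percentile scale the highest fold turned to H/R excesses of 19.2 for *Hif1a*, 4.83 for *Egln1*, 22.5 for *Egln2* and 3.47 for *Vegfa*, in percentage points. Leaving out 1 library at a time gave 3 to 5 genes with more peaks in every H/R list (5 without H/R B, with *Egln3* and *Vegfa* added), 3 to 5 regions called in H/R alone (5 without H/R B or without control A) and 2 to 3 genes called in H/R alone (3 without control A). The matching shares over all genes and regions were not counted with a library left out, so these counts cannot be set against the whole lists. Leaving out 1 library moved the difference in bases between -6.17 (without control B) and 223 for *Hif1a*, and between -8.0 (without H/R A) and 119 for *Arnt*. For *Egln2* the difference, 0 with all libraries, ran from -185 bases and -0.33 peaks (without control B) to 185 bases and 0.33 peaks (without H/R B). With a p score of at least 100 the genes called in H/R alone were *Egln3* and *Tfrc* and those with more peaks *Hif1a*, *Egln3* and *Tfrc*, beside 5.97% and 15.7% of 8811 genes. Joining close peaks left the number of genes with more peaks and the mean excess of peaks as they were, the overlap of 50% left the 3 regions called in H/R alone, and naming by exon overlap, which used no strand because the lists give none, left these and the genes called as they were. The cause of these shifts was not tested.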
